A study of Mus musculus with 8 samples.

Results

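The genes described here are a list of 38 cell proliferation genes: cyclins and the kinase Cdk1, mitotic kinases and checkpoint proteins, parts of the spindle, kinetochore and cytokinesis machinery, the ubiquitination step of anaphase, chromosome proteins, DNA replication factors and enzymes of nucleotide synthesis. They were found by symbol among 37008 gene names on the array, and each gene was read from the probe with the highest mean over the arrays, out of 70 probes that carry the 38 symbols. Of the 38 genes, 35 had a probe well above background on at least 2 of 8 arrays and entered the fits with 25872 genes in all, and 30 of the 35 were well above background on every array. Bub1, a spindle checkpoint kinase, and Kif11, the motor that separates the spindle poles, were each well above background on 1 array, and the G1 cyclin Ccne2 on 0 arrays, so these 3 genes have no comparison. Aurkb, Cdk1, Cenpf, Kif20a and Nusap1 passed with fewer than 8 arrays.

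The 8 arrays carried RNA labelled as astrocyte RNA from C57Bl/6J spinal cord, 1 array for each combination of genotype and condition. The genotypes were Cx47-deficient (icKO in the titles) and wild type (WT; FL or F/F in the titles), Cx47 being a gap junction protein of oligodendrocytes. The conditions were EAE (experimental autoimmune encephalomyelitis, the mouse model of multiple sclerosis), EAE with the anti-inflammatory drug iguratimod, chronic-phase EAE, and naive. The promoter driving the deletion, ages, numbers of animals and the way cells were isolated are not given in the sources used here. The 2 chronic arrays stood apart: they alone lay on a second slide with its own scan session, had a spike-in slope of 0.76 against 0.92 to 1.07 on the other 6 arrays, and had more spots well above background (71.3% and 72.0%, against 59.7% to 65.8%). Slide and chronic phase cannot be told apart. All 11 astrocyte markers were well above background on all 8 arrays, and so were all 9 neuronal, all 9 microglial and all 9 oligodendrocyte precursor markers, so the RNA was not from astrocytes alone. In such samples more dividing cells and more transcript per cell cannot be told apart.

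A dividing cell copies its DNA in S phase and separates the copies in mitosis. Cyclins bind cyclin-dependent kinases to drive these steps, E2F factors switch on replication genes before S phase, and a second group of promoters, with a CHR element and CCAAT boxes, is repressed in resting cells by the DREAM complex and active in G2 and mitosis. Most mature cells of the spinal cord are outside the cycle, while microglia, glial precursors and activated immune cells can divide in EAE.

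The largest differences of this list were read by 60-base probes to Mki67 (chr7:142881591-142881650, minus strand), Top2a (chr11:98854651-98854710, minus strand), Ube2c (chr2:164598016-164598075, plus strand), Nusap1 (chr2:119475072-119475131, plus strand), Tk1 (chr11:117676845-117676904, minus strand) and Cdk1 (chr10:68805423-68807832, minus strand, in more than 1 block because the span is 2410 bases). Positions are on mm9, per the file headers. These probes are shown because the results on EAE turn on them.
Mki67: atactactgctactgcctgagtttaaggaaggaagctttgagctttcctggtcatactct
Top2a: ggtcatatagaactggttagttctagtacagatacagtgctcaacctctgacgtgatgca
Ube2c: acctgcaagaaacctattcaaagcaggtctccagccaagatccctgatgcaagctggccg
Nusap1: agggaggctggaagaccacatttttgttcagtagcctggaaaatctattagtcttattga
Tk1: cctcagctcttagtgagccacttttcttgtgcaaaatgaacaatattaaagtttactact
Cdk1: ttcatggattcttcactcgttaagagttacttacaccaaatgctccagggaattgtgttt

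Promoter sequences were given for 32 of the 38 genes (RefSeq, GRCm38.p6, 250 bases before to 50 after each gene's start). The CHR core TTTGAA, on either strand, stood in 16 of the 32 windows, against 20.23% of 27025 genes. CCAAT, on either strand, stood in 26 (81.25%, against 41.06%), and all 16 windows with a CHR core also held CCAAT, against 8.97% of all genes with both. An E2F core, TTCCCGC or TTGGCGC on either strand, stood in 9 (28.12%, against 7.79%), and GGGCGG, a GC box, in 27 (84.38%, against 38.2%). E2F and CCAAT letters overlapped at 2 E2F matches in all, 1 upstream of Ccnb1 and 1 upstream of Ect2. A match is a run of letters and not a shown binding site. The 250 bases before the start are printed for Mki67 (chr7:135716380-135716629, minus strand), Top2a (chr11:99024190-99024439, minus strand), Ube2c (chr2:164769679-164769928, plus strand) and Cdk1 (chr10:69352913-69353162, minus strand), which hold CHR and CCAAT letters and belong to the genes with the largest EAE differences, and for Mcm6 (chr1:128359706-128359955, minus strand), a replication gene with 2 E2F cores. Capitals mark the CHR core, CCAAT and the E2F cores, and a match on the other strand shows as its reverse complement. In Ube2c a run of capitals joins 2 overlapping CCAAT matches on opposite strands.
Mki67: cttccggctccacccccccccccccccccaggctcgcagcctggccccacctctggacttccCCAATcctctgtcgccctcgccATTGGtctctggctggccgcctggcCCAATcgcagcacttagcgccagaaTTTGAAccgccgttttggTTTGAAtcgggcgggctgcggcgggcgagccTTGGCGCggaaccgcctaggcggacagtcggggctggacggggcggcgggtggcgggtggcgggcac
Top2a: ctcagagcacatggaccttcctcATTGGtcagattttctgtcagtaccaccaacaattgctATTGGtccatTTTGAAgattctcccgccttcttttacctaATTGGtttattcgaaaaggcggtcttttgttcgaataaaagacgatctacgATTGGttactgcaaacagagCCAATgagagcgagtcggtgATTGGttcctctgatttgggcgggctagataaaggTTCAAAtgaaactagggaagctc
Ube2c: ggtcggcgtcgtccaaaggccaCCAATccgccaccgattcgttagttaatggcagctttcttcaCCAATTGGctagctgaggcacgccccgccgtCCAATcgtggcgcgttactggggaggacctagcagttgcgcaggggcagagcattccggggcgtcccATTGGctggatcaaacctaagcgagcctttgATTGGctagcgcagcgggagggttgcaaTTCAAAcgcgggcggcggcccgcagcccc
Cdk1: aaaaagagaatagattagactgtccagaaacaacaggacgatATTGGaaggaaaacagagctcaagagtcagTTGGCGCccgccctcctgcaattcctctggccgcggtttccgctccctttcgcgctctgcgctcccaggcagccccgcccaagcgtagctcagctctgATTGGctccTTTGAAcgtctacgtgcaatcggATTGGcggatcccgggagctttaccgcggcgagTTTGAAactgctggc
Mcm6: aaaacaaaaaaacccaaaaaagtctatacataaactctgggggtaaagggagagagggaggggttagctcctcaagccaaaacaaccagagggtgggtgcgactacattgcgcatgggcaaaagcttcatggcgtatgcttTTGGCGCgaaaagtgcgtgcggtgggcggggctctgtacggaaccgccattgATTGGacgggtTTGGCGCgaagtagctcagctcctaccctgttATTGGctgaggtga

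In these windows the nearest CHR letters began 15 bases before the start in Cdk1, 23 in Top2a, 29 in Ube2c and 98 in Mki67. Top2a and Ube2c held 6 CCAAT matches each, Cdk1 and Mki67 held 3 each. Nusap1 and Tk1, whose EAE differences were as large, held neither upstream of the start. Over the 15 measured genes with CHR and CCAAT letters the median difference between EAE and naive was 0.90 on the log2 scale (range −0.15 to 1.99), and over the 15 measured genes with a window lacking 1 or both it was 0.54 (range −0.10 to 2.01). The ranges overlap almost entirely.

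Whether proliferation genes differed in EAE was the first comparison. Mitotic genes were higher on both EAE arrays than on both naive arrays, whereas most replication genes showed little difference. All values are log2 signals relative to the array's percentile 75, and differences are log2 differences of the condition means from a limma fit of condition plus genotype. Of the 35 measured genes, 30 had a positive difference, with a median of 0.70, against −0.06 over all 25872 genes. No member passed an adjusted p under 0.05 (0 of 35), where 0.251% of all genes did. At an unadjusted p under 0.05, 19 were higher and 0 lower, against 5.41% of all genes higher. In 29 of the 35 both EAE arrays lay above both naive arrays, against 13.5% of all genes. That count was 24 of the 30 genes well above background on all 8 arrays, a group the filter on dim values cannot have shaped, and it was 20 to 28 of the 35 under the other scalings and probe rules, all of which kept the median positive, at 0.25 with normexp background correction and at 0.71 to 0.74 with the others.

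**Figure D1:**
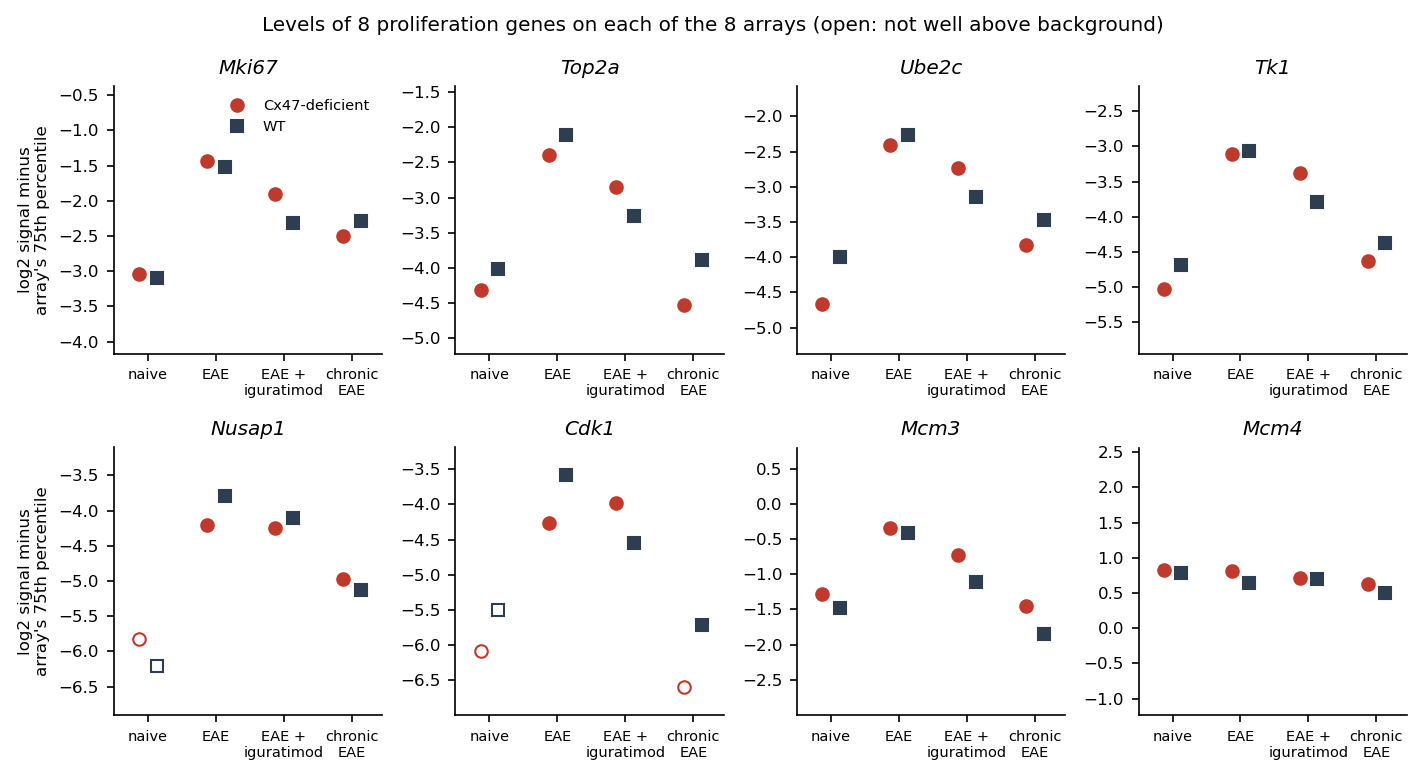
Level of 8 proliferation genes on each of the 8 arrays, as log2 signal minus the array's 75th percentile, by condition and genotype; each point is 1 array and every panel spans the same log2 range. Mki67, Top2a, Ube2c, Tk1, Nusap1, Cdk1 and Mcm3 lie higher on both EAE arrays than on both naive arrays, Mcm4 does not, and open points are not well above background.

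Mki67, the gene of the Ki-67 proliferation antigen, which coats mitotic chromosomes, was at −1.44 on the Cx47-deficient and −1.52 on the WT EAE array, against −3.03 and −3.10 on the naive arrays. The genotypes lay closer together than 0.1 in both conditions, while the conditions were 1.59 ± 0.20 apart (SE; limma, adjusted p = 0.0696 after Benjamini-Hochberg adjustment). Top2a, the DNA topoisomerase that untangles chromosomes, was at −2.39 (Cx47-deficient) and −2.11 (WT) in EAE, against −4.32 and −4.01 in naive mice. The difference was 1.92 ± 0.28 (SE), a ratio of 3.78, with an adjusted p of 0.0886 in the limma fit. Another Top2a probe was at least 1.38 higher, as it was not well above background on either naive array. A further probe, well above background on 1 EAE and 1 naive array, differed by −0.14. Dim signals of these probes were set at the array's lowest signal well above background, or left where higher.

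Ube2c, which hands ubiquitin to the anaphase-promoting complex, was at −2.41 (Cx47-deficient) and −2.27 (WT) in EAE, against −4.67 and −3.99 in naive mice. Its difference was 1.99 ± 0.29 (SE; limma, adjusted p = 0.0859). Nusap1, which bundles spindle microtubules, was at −4.21 and −3.79 on the EAE arrays, against −5.82 and −6.21 on the naive arrays, where it was not well above background. The EAE level was at least 2.41-fold higher than the naive background. For this bound a dim array was set at its lowest signal clear of background, or at the probe's own signal where higher. The limma fit used the signals as read, a 4.03-fold difference (adjusted p = 0.0625), and did not test the bound. Cdk1, the kinase that drives entry into mitosis, was likewise not well above background on either naive array. It stood at −4.26 and −3.59 in EAE, against −6.08 and −5.49 in naive mice, at least 2.54-fold higher. The fitted difference of the signals as read was 3.64-fold (limma, adjusted p = 0.184). Tk1, the S-phase thymidine kinase, was at −3.11 and −3.07 in EAE, against −5.02 and −4.69 in naive mice. Its difference of 1.76 ± 0.23 (SE; limma, adjusted p = 0.0753) was larger than that between the genotypes in either condition. For none of these 6 genes did the EAE and naive arrays overlap.

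**Figure D2:**
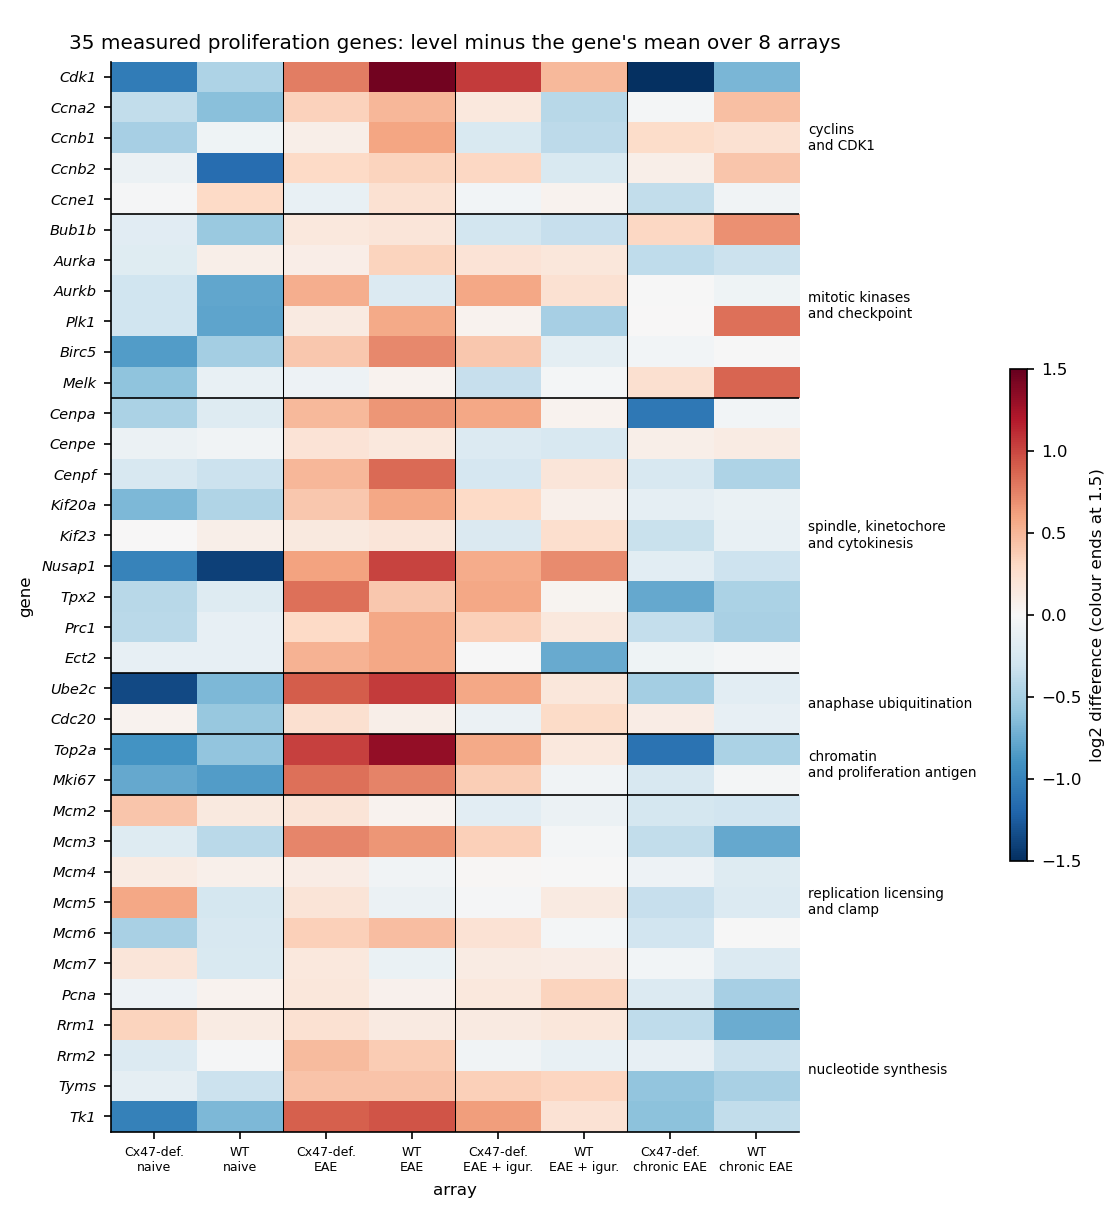
Each of the 35 measured genes on the 8 arrays, as the log2 level minus the gene's mean over the 8 arrays (red above, blue below, colours ending at 1.5), in blocks by role. Most genes of the spindle, anaphase and chromosome blocks are red in both EAE columns and blue in both naive columns, with Kif23 and Cdc20 as exceptions in the naive columns, while Mcm2, Mcm4, Mcm7, Pcna and Rrm1 stay pale there.

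Among the cyclins, Ccna2 (S phase and G2) was at −2.55 and −2.40 in EAE, against −3.27 and −3.53 in naive mice, and Ccnb1 and Ccnb2, the mitotic cyclins, also did not overlap. Ccnb2 was the least even of them, at −1.98 on the Cx47-deficient but −3.04 on the WT naive array, against −1.59 and −1.56 in EAE. Ccne1, which acts before S phase, was at 1.17 and 1.51 in EAE, against 1.26 and 1.58 in naive mice, so its levels overlapped. Its only probe is 60 bases long, but the position given for it spans 24 bases. All 6 measured mitotic kinase and checkpoint genes were higher in EAE without overlap. The WT signals of Aurkb, −5.20 in EAE and −5.78 in naive mice, were not well above background. Birc5 (survivin, a partner of the Aurora B kinase) led them at −0.67 and −0.36 in EAE, against −1.91 and −1.59 in naive mice. Aurka, Aurkb, Plk1, Bub1b and the kinase gene Melk had differences between 0.26 (Aurka) and 0.90 (Plk1).

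All 9 measured spindle, kinetochore and cytokinesis genes were higher on both EAE arrays. Kif20a, a motor of cytokinesis, was at −4.07 and −3.89 in EAE, against −5.15 and −4.93 in naive mice. Cenpf, a kinetochore protein, was at −4.09 and −3.74, against −4.84 and −4.91. Tpx2, the activator of Aurora A, was at −3.43 and −3.84, against −4.67 and −4.45. Cenpa (the centromeric histone), Prc1 (which bundles the central spindle) and Ect2 (which sets the cleavage furrow) differed by 0.91, 0.70 and 0.67, while Cenpe and Kif23, motors of the kinetochore and of cytokinesis, differed by only 0.25 and 0.11. The anaphase activator Cdc20 differed by 0.42.

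The replication genes divided. Mcm2 to Mcm7 form the helicase that opens the DNA, yet only Mcm3 and Mcm6 were higher on both EAE arrays. Mcm3 was at −0.35 and −0.42 in EAE, against −1.28 and −1.49 in naive mice (1.00 ± 0.17, SE; limma, adjusted p = 0.123). Mcm6 was at 0.76 and 0.87, against −0.08 and 0.16. Mcm2, Mcm4, Mcm5 and Mcm7 had differences between −0.15 and 0.05, and the sliding clamp Pcna stood at 2.68 and 2.57 in EAE, against 2.43 and 2.56 in naive mice. In nucleotide synthesis, Tyms (thymidylate synthase) was at −1.54 and −1.55, against −2.11 and −2.30. Of its probes not in use, 1 differed by 0.67 and another by −0.58, both well above background on all 8 arrays. Rrm2, the regulated subunit of ribonucleotide reductase, differed by 0.54, whereas Rrm1, the other subunit, differed by −0.05. Mki67, Tk1 and Mcm3 are given with their fits in addition to the 4 largest differences, as chosen after the values were seen.

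**Figure D3:**
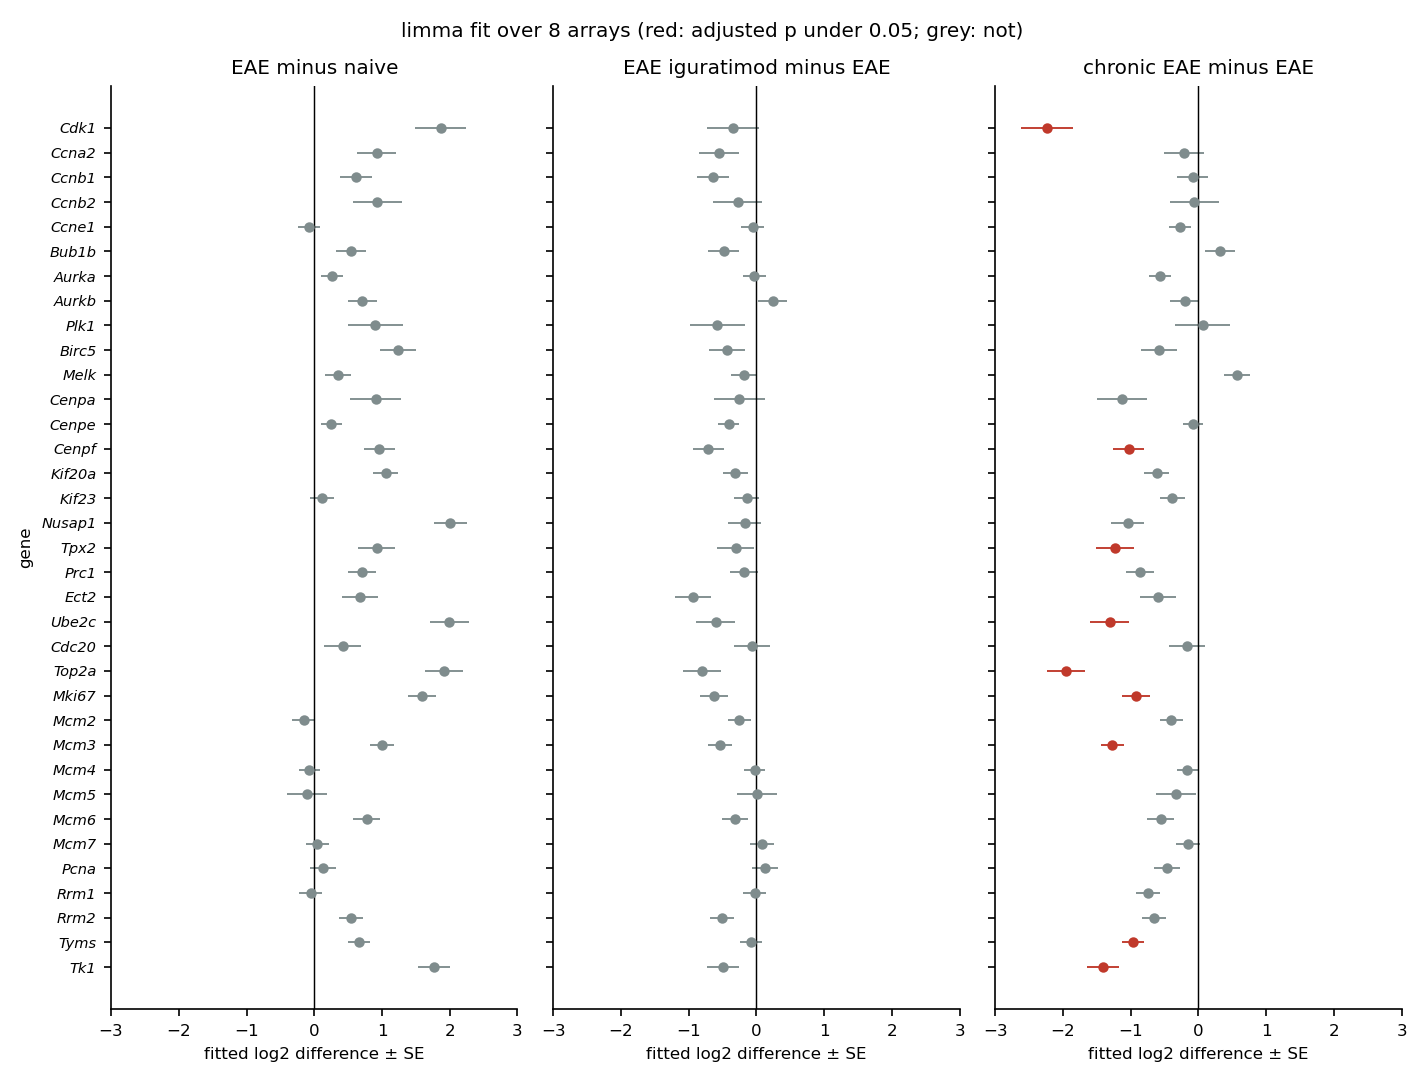
Fitted log2 differences of the 35 measured genes with their SE (limma over 8 arrays), for EAE minus naive, EAE with iguratimod minus EAE, and chronic EAE minus EAE; red marks an adjusted p under 0.05. In EAE minus naive 30 points lie right of 0 and none is red, and in chronic EAE minus EAE 9 are red, all left of 0.

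Within each genotype the difference has no replicate and was not tested. On the Cx47-deficient arrays 9 of 35 genes were at least 2-fold higher in EAE, where 5.08% of all genes were, and on the WT arrays 13 of 34 were, where 3.35% were. The genes at least 2-fold higher in both genotypes were Cdk1, Birc5, Kif20a, Nusap1, Ube2c, Top2a, Mki67 and Tk1.

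Other genes of the cell cycle, from lists of related genes, differed less. Of 37 measured other mitosis genes, 23 had a positive difference between EAE and naive, with a median of 0.16, and 17 did not overlap upward. Pbk, a mitotic kinase, was at least 3.58-fold higher (limma, adjusted p = 0.0832), and Cdca3, which helps to trigger mitotic entry, was at −2.77 on average in EAE, against −4.58 in naive mice (adjusted p = 0.116 in the same fit). Of 39 other replication genes 21 were positive, with a median of 0.01. Orc1, of the origin recognition complex, had the most negative value (−1.67 ± 0.54, SE), and Uhrf1, which carries DNA methylation through replication, the most positive (0.86 ± 0.23, SE). Among 11 G1 cyclins, kinases and their drivers the median was 0.07, with Cdk6 (0.87) and Myc (0.80) at the top. Among 7 CDK inhibitors it was 0.44, with Cdkn3 at 1.02 and Cdkn2c, which blocks Cdk4 and Cdk6, at 0.94. Among 19 E2F, RB and DREAM genes it was 0.00, with the E2F repressor E2f8 at least 1.46-fold higher and Foxm1, a transcription factor of mitotic genes, at 0.83. None of these lists had a gene that passed the adjusted threshold in EAE against naive.

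Markers of other cells differed between the same arrays. The mean level of 12 measured T and NK cell markers of 14 was −0.57 (Cx47-deficient) and −1.21 (WT) on the EAE arrays, against −3.85 and −3.52 on the naive arrays, and Trac and Cd8a were not measured. The mean of 9 monocyte and macrophage markers was 1.74 and 0.79 in EAE, against −2.45 and −2.28. The mean of 8 endothelial markers was −0.33 and −0.33 in EAE, against −3.26 and −2.04, and that of 9 microglia markers was 2.48 and 2.32, against 1.87 and 1.86. The means of the neuronal and astrocyte markers differed by less than 0.3 between any EAE and any naive array. The part of these cells in the proliferation values was not tested.

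Iguratimod was compared with untreated EAE. Most proliferation genes were lower on the treated arrays, by less than they were higher in EAE, and no gene passed the test. Of 35 genes 31 had a negative difference, with a median of −0.31, against −0.01 over all genes. Of the 35, 0 passed the adjusted threshold, as did 0.0% of all genes, and 8 were lower and 0 higher at an unadjusted p under 0.05, where 1.57% of all genes were lower. In 18 of 35 both treated arrays lay below both untreated arrays, against 12.8% of all genes, but in 11 of 35 with median centring. The median difference was −0.17 without the WT treated array and −0.083 with normexp background correction.

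The 4 largest differences were those of Ect2, Top2a, Cenpf and Ccnb1. Ect2 was at −4.32 (Cx47-deficient) and −5.07 (WT) with iguratimod, against −3.79 and −3.73 without it (−0.93 ± 0.26, SE; limma, adjusted p = 1.00). Top2a was at −2.85 and −3.26 with iguratimod, against −2.39 and −2.11 (−0.81 ± 0.28, SE). Cenpf was at −4.84 and −4.41, against −4.09 and −3.74 (−0.71 ± 0.23, SE), and Ccnb1 at −3.74 and −3.90, against −3.43 and −2.93 (−0.64 ± 0.23, SE). None of these 4 genes overlapped between treated and untreated arrays, but the values rest on single arrays. Without the WT treated array Ect2 was at −0.54, Top2a at −0.40 and Ccnb1 at −0.42, and without the Cx47-deficient treated array Top2a was at −1.21. Ccnb1 was at −0.43 without the WT EAE array. Mki67 was at −1.90 and −2.31, against −1.44 and −1.52, and also did not overlap. In contrast, Nusap1 was at −4.25 and −4.10 with iguratimod, against −4.21 and −3.79 without it, only 0.17 lower on average. Pcna, Mcm4, Mcm7 and Mcm5 had differences from −0.02 to 0.13. Among the other lists, the medians lay between −0.04 and 0.07. Kif18a, a kinetochore motor, was at least 1.46-fold lower (limma, adjusted p = 1.00), and the value of Hells, a replication-linked remodeller, was −1.19 ± 0.65 (SE). Cdk6 differed by −0.49, Cdkn3 by −0.30 and E2f2, an activating E2F, by −0.58. Cell type markers differed between the same arrays: all 12 measured T and NK cell markers had a negative value (median −0.51), all 8 endothelial markers were lower without overlap (median −0.85), and the medians were −0.54 for the monocyte and macrophage, −0.56 for the neutrophil and −0.83 for the 4 B and plasma cell markers. Their part was not tested.

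Against naive mice, the treated arrays still held higher levels. The median was 0.36 (0.18 with normexp background correction), with 26 of 35 genes positive and 17 without overlap upward, against 14.0% of all genes. None of the 35 passed the adjusted threshold, where 0.00387% of all genes did, and 11 were higher and 0 lower at an unadjusted p under 0.05, where 4.1% of all genes were higher. Nusap1 was at least 2.14-fold and Cdk1 at least 2.01-fold higher than naive. With the signals as read they were 3.58-fold and 2.88-fold higher (limma, adjusted p = 0.114 and 0.359). Ube2c was 1.39 ± 0.29 and Tk1 1.27 ± 0.23 higher (SE; limma, adjusted p = 0.243 and 0.194). This comparison shares its treated arrays with the one before it and its naive arrays with EAE against naive.

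**Figure D4:**
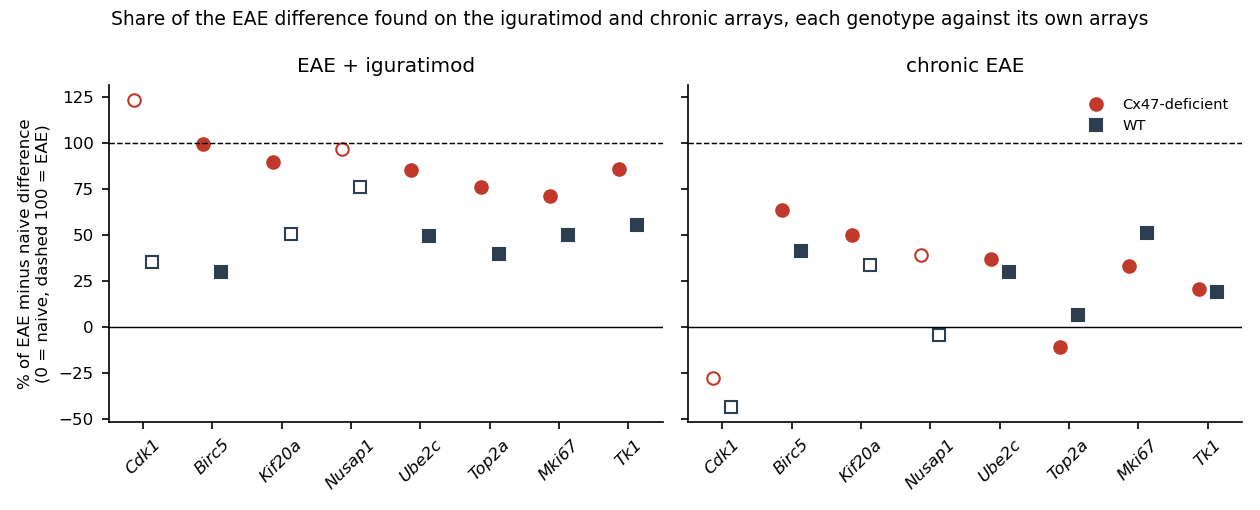
Share of each genotype's own EAE minus naive log2 difference that was found on its iguratimod array (left) and on its chronic array (right), for the 8 genes at least 2-fold higher in EAE in both genotypes; 0 is the naive and 100 the EAE level. Open points rest on a signal that was not well above background, set at the array's lowest signal that was, or left at its own value where higher. With iguratimod the 5 genes with filled points in both genotypes lie between 71.2% and 99.5% in Cx47-deficient mice, against 30.1% to 55.5% in WT mice, and in chronic EAE the order is mixed.

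The genotypes differed in how much of the EAE difference was left with iguratimod, as a description of single arrays. Of the 8 genes at least 2-fold higher in EAE in both genotypes, Birc5, Ube2c, Top2a, Mki67 and Tk1 were well above background on all 8 arrays. For these 5 genes the treated array kept a median of 85.6% (range 71.2% to 99.5%) of the difference in Cx47-deficient mice, and 49.5% (range 30.1% to 55.5%) in WT mice. Birc5 kept 99.5% in Cx47-deficient and 30.1% in WT mice, Ube2c 85.6% and 49.5%, Top2a 76.1% and 39.6%, and Tk1 86.0% and 55.5%. The shares of Cdk1 and Nusap1 in both genotypes, and of Kif20a in WT mice, rest on a naive signal that was not well above background. These 3 genes are drawn but not summarised. Across the other scalings and probe rules the median of the 5 genes was 81.0% to 95.0% in Cx47-deficient mice and 27.1% to 50.1% in WT mice. With the mean of each gene's probes the ranges overlapped, at 42.42% to 102.55% in Cx47-deficient and 27.38% to 73.45% in WT mice. The genes share the same 6 arrays, so 5 genes are not 5 replicates, and the difference between the genotypes was not tested. They were chosen by the same EAE and naive arrays that form the difference, which by itself can lower the shares in both genotypes. Markers of other cells differed between the same arrays. The T and NK cell mean was −0.64 with iguratimod, against −0.57 without it, in Cx47-deficient mice, and −2.14, against −1.21, in WT mice. The monocyte and macrophage mean was 1.18, against 1.74, in Cx47-deficient mice and 0.26, against 0.79, in WT mice. The microglia mean was 2.58, against 2.48, in Cx47-deficient mice and 1.77, against 2.32, in WT mice. In the opposite order, the neutrophil mean was −2.17, against −0.86, in Cx47-deficient mice and −1.57, against −1.69, in WT mice, and the endothelial mean −1.32, against −0.33, and −0.87, against −0.33. Their part in the result was not tested.

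In chronic EAE the proliferation genes were lower than in EAE. The chronic arrays were separate samples on the second slide, so slide and phase cannot be told apart in this comparison. Fell and rose stand here for lower and higher on the chronic arrays. The limma fit called 9 of 35 lower at an adjusted p under 0.05 and 0 higher, where 5.44% of all genes were called lower and 9.07% higher. Of the 35 genes 32 had a negative difference, with a median of −0.57, against 0.02 over all genes, and in 25 both chronic arrays lay below both EAE arrays, against 36.3% of all genes. Those called lower were Cdk1, Top2a, Tk1, Ube2c, Mcm3, Tpx2, Cenpf, Tyms and Mki67. Each of these 9 calls was lost without the Cx47-deficient EAE, the WT EAE, the Cx47-deficient chronic or the WT chronic array (0 of 35 called), and 3 of 35 genes were called without any 1 of the other 4. Under other scalings 16 to 19 of the 35 were called, and the median was −0.49 to −0.97. Markers of other cells also differed between chronic EAE and EAE, and not all in 1 direction. The median difference was −2.82 for the monocyte and macrophage markers (5 of 9 called lower) and −1.57 for the T and NK cell markers (3 of 12). It was −1.54 for the neutrophil markers (2 of 7), −1.61 for the endothelial markers (1 of 8) and −1.48 for the ependymal markers (1 of 6). It was −1.12 for the astrocyte markers (3 of 11) and −0.68 for the microglia markers (1 of 9). The B and plasma cell markers were mostly higher in chronic EAE: 3 of 4 were positive (median 0.86), with 1 called higher and 0 lower. The part of all these cells in the proliferation values was not tested.

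Cdk1 was at −6.60 (Cx47-deficient) and −5.71 (WT) in chronic EAE, the first of these not well above background, against −4.26 and −3.59 in EAE (−2.23 ± 0.38, SE; limma, adjusted p = 0.0390). With the dim chronic array set at its lowest signal well above background, the differences were −1.54 in Cx47-deficient and −2.13 in WT mice. Top2a was at −4.52 and −3.89, against −2.39 and −2.11, and fell by 1.96 ± 0.28 (SE; limma, adjusted p = 0.0367). Tk1 was at −4.63 and −4.38, against −3.11 and −3.07, and fell by 1.41 ± 0.23 (SE; limma, adjusted p = 0.0386). The chronic values of Top2a spanned its naive values of −4.32 and −4.01, while both chronic values of Tk1 lay above its naive values of −5.02 and −4.69.

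Ube2c was at −3.83 and −3.47 in chronic EAE, against −2.41 and −2.27 in EAE, a fall of 1.31 ± 0.29 (SE; limma, adjusted p = 0.0471). Mcm3 was at −1.45 and −1.85, against −0.35 and −0.42 (−1.27 ± 0.17, SE; adjusted p = 0.0351, limma), and Tyms at −2.56 and −2.46, against −1.54 and −1.55 (−0.96 ± 0.16, SE; adjusted p = 0.0387, limma). Tpx2, Cenpf and Mki67 fell by 1.23, 1.03 and 0.92 (limma, adjusted p = 0.0481, 0.0474 and 0.0478). Mki67 was at −2.50 and −2.29 in chronic EAE, still above both naive values of −3.03 and −3.10. Other genes did not follow: Plk1, the Polo kinase of mitosis, was at −2.50 and −1.67 in chronic EAE, against −2.37 and −1.93 in EAE, Melk at −4.03 and −3.40, against −4.35 and −4.22, and Bub1b at −3.73 and −3.36, against −3.88 and −3.86. Melk and Bub1b were the genes whose chronic arrays both lay above both EAE arrays.

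Of the other cell cycle lists, 8 of 37 other mitosis genes fell and 3 rose in chronic EAE against EAE, the 3 being a share near that of all genes called higher. Those that fell included Cdca5 (−1.70 ± 0.18, SE), which protects sister chromatid cohesion, Cdca3 (−1.63 ± 0.30, SE) and the condensin subunit gene Ncapg (−1.55 ± 0.32, SE), with adjusted p between 0.0284 and 0.0435 in the limma fit. Those that rose were Kif15, Ndc80 and Depdc1a. Kif15, a spindle motor, was at least 1.41-fold higher, as it was not well above background on either EAE array, and Ndc80, a kinetochore protein, and Depdc1a rose by 1.79 and 1.69 (limma, adjusted p = 0.0435 and 0.0451). Of 39 other replication genes, Pole2 (a DNA polymerase epsilon subunit) and Orc1 rose by 3.10 and 2.62, and the histone chaperone gene Asf1b fell by 0.99 (limma, adjusted p = 0.0386, 0.0440 and 0.0386), shares below those of all genes. Tfdp1, the E2F partner, rose by 0.77 (limma, adjusted p = 0.0446). No G1 cyclin or kinase and no CDK inhibitor passed, and their medians were −0.25 and −0.59.

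Several probes of the same gene disagreed in this comparison. The Top2a probe printed above fell by 1.96, while another, chr11:98877908-98877967, was at least 1.73 higher in chronic EAE. It was well above background on both chronic arrays, on 1 EAE array and on 1 naive array, and its dim signals were set at the array's lowest signal well above background. The Tyms probe in use, chr5:30387605-30387664, fell by 0.96 and another at chr5:30388520-30388579 by 0.92, while the one at chr5:30396463-30396522 was 2.01 higher. The sequences of the disagreeing pair for each gene show that they read different stretches of the gene.
Top2a, the probe that was higher: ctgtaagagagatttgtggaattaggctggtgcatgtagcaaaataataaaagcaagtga
Tyms, the probe in use: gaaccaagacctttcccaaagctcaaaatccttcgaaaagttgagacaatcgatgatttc
Tyms, the probe that was higher: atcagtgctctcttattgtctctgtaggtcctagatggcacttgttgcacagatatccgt
Over the 16 other kept probes of 9 of these genes, 10 had the same sign as the probe in use in chronic EAE against EAE, and 14 did in EAE against naive. These counts use dim signals as read. With dim signals raised to the array's lowest signal well above background, this Top2a probe (−0.14) and a Prc1 probe (−0.16) turned negative in EAE against naive.

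Against naive mice, chronic EAE showed no common direction. The median was −0.04, with 17 genes positive and 18 negative, and 0 of 35 passed the adjusted threshold, where 0.858% of all genes did. The median was −0.40 with median centring, 0.22 with the mean of each gene's probes and 0.21 without the Cx47-deficient chronic array, so its sign depends on these choices. At an unadjusted p under 0.05, 4 of the 35 were higher and 2 lower, fewer than the 18.9% and 13.7% of all genes. Nusap1, at −4.97 and −5.13 in chronic EAE, was 1.95-fold higher with the signals as read (limma, adjusted p = 0.0845). It was at least 1.17-fold above the naive background as a mean over the genotypes. This bound rests on the Cx47-deficient arrays, at least 0.50 apart. The WT chronic signal lay below the −5.07 set for the dim WT naive array. Plk1 was 0.96 ± 0.40, Melk 0.92 ± 0.19 and Ccnb2 0.87 ± 0.37 higher (SE; limma, adjusted p = 0.169, 0.0727 and 0.170). Plk1 was at 0.45 without the WT chronic array and 0.60 without the WT naive array, and Ccnb2 at 0.45 and 0.37, while without the Cx47-deficient chronic array they were at 1.48 and 1.30. Among the other lists, Pole2 was 2.53 ± 0.52 higher, Dlgap5 2.01 ± 0.98 higher and the CDK inhibitor Cdkn1c 1.20 ± 0.19 lower (SE; limma, adjusted p = 0.0719, 0.216 and 0.0596). The astrocyte marker mean was 2.98 (Cx47-deficient) and 2.26 (WT) on the chronic arrays, against 3.42 and 3.50 on the naive arrays, and the T and NK cell mean −2.51 and −2.55, against −3.85 and −3.52. Their part was not tested.

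**Figure D5:**
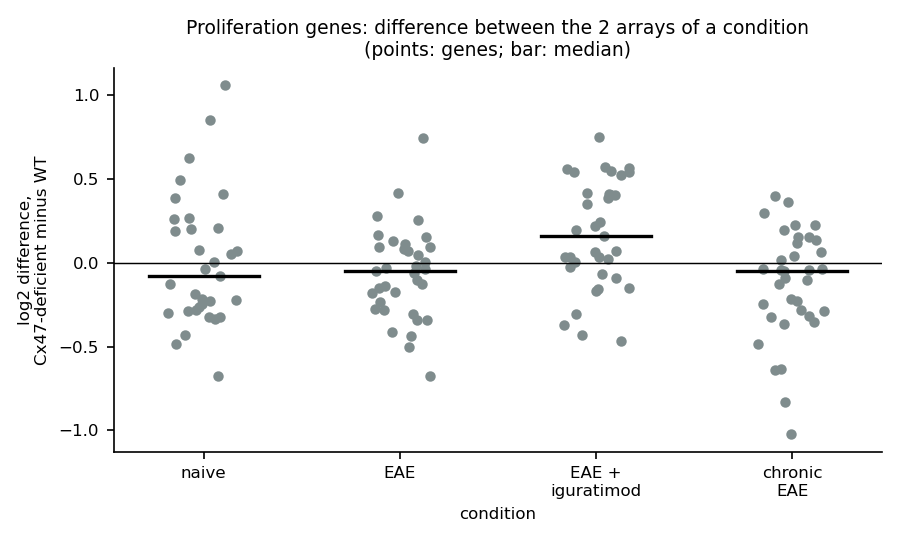
Log2 difference between the Cx47-deficient and the WT array of each condition; each grey point is 1 of the measured proliferation genes and the bar is their median. The medians are −0.08 (naive), −0.05 (EAE), 0.16 (iguratimod) and −0.05 (chronic EAE), with points on both sides of 0 in each.

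Whether Cx47 deficiency shifted these genes over all conditions was the last comparison. The median difference between Cx47-deficient and WT arrays was 0.00, with 18 genes positive and 17 negative. The fit called 0 of 35, and 0.0% of all genes, with 1 member higher and 1 lower at an unadjusted p under 0.05, where 3.32% and 1.1% of all genes were. The largest values were those of Aurkb (0.41 ± 0.15), Cdk1 (−0.40 ± 0.27), Melk (−0.39 ± 0.14) and Ccnb2 (0.31 ± 0.26), each with its SE and an adjusted p of 0.830 in limma. The Aurkb value rests in part on WT signals that were not well above background, those of the naive and EAE arrays. With the dim WT naive signal set at the array's lowest signal well above background, Aurkb differed by −0.22 in naive mice. Its differences under the other conditions were positive, at 0.74 (EAE), 0.35 (iguratimod) and 0.07 (chronic EAE). Ccnb2 was at 0.06 without either naive array, and Cdk1, which also includes signals not well above background, at −0.72 without either iguratimod array. In no measured gene did all 4 Cx47-deficient arrays lie on one side of all 4 WT arrays. Of all 25872 genes, 58 lay above and 123 below in this way, so 0 of 35 does not set these genes apart. Between single arrays, the largest gap was that of Ccnb2 in naive mice, 1.06 higher in the Cx47-deficient array, followed by Cenpa in chronic EAE, at −4.73 in the Cx47-deficient and −3.71 in the WT array. With iguratimod 25 of 35 genes were higher on the Cx47-deficient array, led by Ect2 (0.75), Ccna2 (0.57), Cdk1 (0.56) and Plk1 (0.56). That median of 0.16 was 0.03 to 0.15 under the other scalings and probe rules. The median of all spots was also higher on the Cx47-deficient iguratimod array, at −3.60, against −3.69 on the WT one. The part of this array-wide difference in the 25 genes was not tested.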

How the data were processed

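RNA of 8 samples was measured on 8 single-colour arrays, 1 per group. The deposited scanner files give spot intensity values, made with Agilent Feature Extraction 10.7.1.1 per the file headers. The submitters' processing notes name 9.5.1.1 instead, which was not resolved. The processed signal is an intensity after background subtraction, per the file headers. A deposited table of the authors' processed intensity values served as an alternative. Flags and other columns were taken as deposited.

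The log2 of this intensity was taken, less the array's own percentile 75. Outlier spots were left out and spots of a probe averaged. A gene was kept when its brightest probe was well above background on at least 2 arrays. Condition plus genotype was fitted over 25872 genes with the limma functions lmFit and eBayes (limma 3.58.1, R 4.3.3; 3 residual and 2.12 prior degrees of freedom, prior SD 0.234), with Benjamini-Hochberg adjustment over all genes and a threshold of 0.05. The 2 genotypes of a condition stand in for replicates, so p-values measure how unevenly the genotypes differed from condition to condition; nothing says that the arrays carried separate animals, and this spread may be technical. The number of arrays limits the precision. Single-array differences raise dim values to the array's lowest signal well above background. Where a fold is given as a lower bound, the adjusted p belongs to the fit of the signals as read, not to the bound. The fit was tested on simulated data.

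Named with a fit were called members and the 4 largest differences, and of the other lists up to 6 called genes and the 2 largest differences. The members and lists were chosen with earlier results of these data known. Alternatives covered background correction, normalization, filter, probe rule, genotype term, slide 1 alone and each array left out. There were 0 columns of values per sample without a sample.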

Additional observations from a re-analysis of the deposited data

Results flagged for a closer look

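Probes outside the comparisons gave a higher signal on both chronic arrays than on both naive arrays. A Tyms probe, well above background on all 8 arrays, was 1.43 higher in chronic EAE than in naive mice on the log2 scale, and a Top2a probe was at least 1.59 higher, its signal on the WT naive array not being well above background. The probes in use for these genes differed by −0.30 and −0.04. These chronic arrays lie on a slide of their own.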

How the results depend on the processing

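No paired analysis was possible because the labels give no replicate numbers and each group holds 1 array. The count of genes called in EAE against naive, 0 of 35, became 1 with normexp background correction, 5 with median centring, 4 of 30 with the filter on all 8 arrays and 3 without the genotype term. With iguratimod against naive, it became 1 with median centring. In chronic EAE against naive it became 1 with normexp and 2 with the filter on all 8 arrays. In chronic EAE against EAE, 9 became 16 with normexp, 19 with quantile normalization, 17 with median centring, 19 with the authors' processed values and 3 with no filter; leaving out 1 array gave 0 to 3. The count of genes below without overlap with iguratimod, 18, became 11 with median centring, an alternative chosen after seeing the data, as were the other settings for counts without overlap. The EAE median between genotypes, −0.05, became −0.28 with quantile normalization, −0.38 with median centring and −0.28 with the authors' values, and the naive one, −0.08, became −0.41 with median centring. Median centring moved the median of all genes to −0.33 in chronic EAE against naive, −0.38 against EAE, and −0.18 between genotypes. Of the named genes, 3 differences reversed: Nusap1 in chronic EAE against naive (−0.15 with normexp), Tyms in chronic EAE against EAE (0.043 with the mean of its probes) and Aurkb between genotypes (−0.018 with normexp). Of the other values of named genes under the alternatives, 431 kept direction and side of the threshold, 15 newly passed it and 68 no longer did. Causes were not tested. Probes near background, such as those of Cdk1 and Nusap1, limit what low levels can show.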
